A study of Mus musculus with 7 samples.

Results

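Anti-Six4 peaks at the Mef2c locus were taken as those of the deposited list with their midpoint between positions 83600000 and 83830000 of chromosome 13 (mm9), a window of 230 kb chosen by position to hold Mef2c with its flanks. The list held 3 such peaks, of 2616 on chromosome 13 and 58528 in all. They came from chromatin of the shNS line, C2C12 mouse myoblasts that stably carry a control hairpin, after 24 h in low-serum differentiation medium. C2C12 is an established line whose cells fuse into myotubes in such medium. The series describes 7 libraries, each without a replicate: anti-Six4 in the shNS line and in the Six4 knockdown line shSix4, anti-Flag in a line stably carrying Flag-Six4-myc from a retroviral vector and in the parental line, normal rabbit IgG in the parental line, and input DNA of the parental and shNS lines. Only the peak list of anti-Six4 in the shNS line was analysed here, so no line or antibody was compared with another, and how many of these peaks depend on Six4 is not known. The read depth is unknown.

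Mef2c encodes a transcription factor of the MADS-box family that binds A/T-rich MEF2 sites and works with the basic helix-loop-helix factors MyoD and myogenin, which bind E-boxes, to activate contractile and metabolic genes as myoblasts differentiate. Six4 is a homeodomain factor of the sine oculis family, whose muscle members bind MEF3 sites, often with an Eya coactivator, in control regions of muscle genes such as myogenin. In RefSeq's GRCm38.p6 annotation Mef2c is on the forward strand of chromosome 13, between the protein-coding genes Cetn3 and Tmem161b. The genes listed directly before it are long noncoding RNAs (Gm33274 and Gm33317), and those after it include the long noncoding RNA C130071C03Rik and the microRNA gene Mir9-2. That annotation is of another build than the peaks. It was used for names, strand, gene order and the promoter sequences below, and its positions were not set against the peaks. The exon, intron or flank in which each peak lies was not determined.

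The sequence under the peaks was not read, because no mm9 genome was used here. To show the start regions of the gene, the 3 Mef2c promoter windows of RefSeq (GRCm38.p6, forward strand, 250 bases before to 50 after each annotated start) are printed 5′ to 3′ with every E-box (CANNTG, which reads the same on both strands) in capitals.
Mef2c promoter 1: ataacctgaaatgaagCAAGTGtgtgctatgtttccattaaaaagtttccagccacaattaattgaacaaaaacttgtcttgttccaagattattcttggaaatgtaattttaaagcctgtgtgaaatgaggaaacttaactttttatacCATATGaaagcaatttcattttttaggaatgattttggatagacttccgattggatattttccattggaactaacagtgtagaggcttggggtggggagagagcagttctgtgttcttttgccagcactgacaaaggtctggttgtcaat
Mef2c promoter 2: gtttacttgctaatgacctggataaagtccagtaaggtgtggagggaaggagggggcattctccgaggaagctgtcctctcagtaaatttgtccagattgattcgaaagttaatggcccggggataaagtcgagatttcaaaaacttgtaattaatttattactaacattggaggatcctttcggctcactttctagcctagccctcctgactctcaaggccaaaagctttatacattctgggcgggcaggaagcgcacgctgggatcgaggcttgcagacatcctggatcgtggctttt
Mef2c promoter 3: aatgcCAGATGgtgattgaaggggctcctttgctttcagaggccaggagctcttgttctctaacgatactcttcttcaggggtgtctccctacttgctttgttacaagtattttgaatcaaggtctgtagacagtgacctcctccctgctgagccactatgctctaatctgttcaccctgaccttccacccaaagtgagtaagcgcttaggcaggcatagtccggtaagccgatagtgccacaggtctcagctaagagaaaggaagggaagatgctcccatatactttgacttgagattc
Promoter 1 held the E-boxes CAAGTG and CATATG, beginning 234 and 100 bases before the start. Promoter 3 held CAGATG, beginning 245 bases before the start, and promoter 2 held none. E-boxes were present in 72.3% of the 32851 promoter windows of the table. The MEF3 sequence TCAGGTTTC, searched on both strands with at most 1 mismatch, was in none of the 3 windows and in 8.74% of all windows (0.429% without a mismatch). The MEF2 consensus, as searched, was also in none of the 3, and in 3.19% of all windows. The pattern used for it is not given here, and both values depend on how strict it was. G and C made up 35.7% of promoter 1, 47.0% of promoter 2 and 48.3% of promoter 3, and 52.7% of the median promoter (quartiles 45.7 and 61.7%). Whether a peak covers any of these starts was not determined, and the letters say nothing of the sequence outside these windows.

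The 3 peaks at Mef2c lay together in 6058 bp, 57.5 to 63.4 kb into the window by their midpoints. Peak 1, at chr13:83657437-83657601, was 165 bp wide. Peak 2, at chr13:83662595-83662998, was 404 bp wide. Peak 3, at chr13:83663309-83663494, was 186 bp wide. Peak 2 was thus the widest of the 3 and alone held 53.5% of the 755 bp under peaks. The midpoints of peaks 1 and 2 were 5277.5 bp apart, with 4993 bp between their edges. Those of peaks 2 and 3 were 605 bp apart, with 310 bp between their edges. On chromosome 13, 2.72% of neighbouring midpoints (71 of 2615 pairs) were as close as peaks 2 and 3, and 16.3% were as close as peaks 1 and 2. Joining peaks less than 500 bp apart turned peaks 2 and 3 into a single peak and left 2 at the locus.

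**Figure D1:**
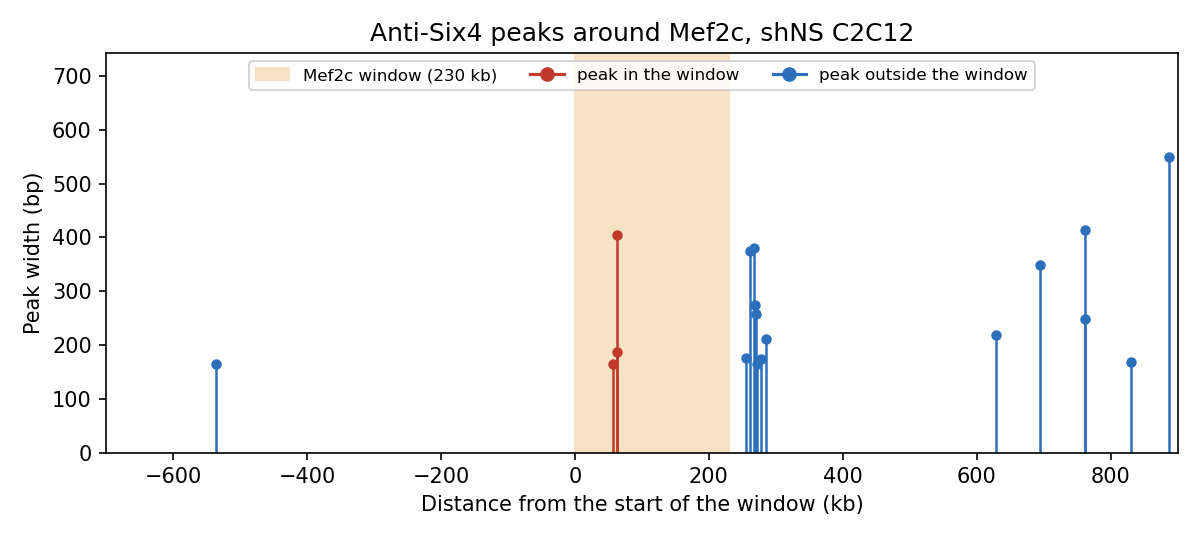
Peaks around Mef2c by distance from the start of the 230 kb window (kb) and width (bp), with each line and point standing for a peak. The 3 peaks of the window (red) stand within 6058 bp, the rest of the window (shaded) is empty, and 8 peaks gather just past its end.

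The rest of the window was empty. No peak lay in its first 57.4 kb or in its last 166.5 kb, which was 72.4% of its length. The last peak before the locus was at chr13:83063619-83063783, 593.7 kb upstream of peak 1. It was 165 bp wide, the shortest width in the list. Only 17 of the 2615 gaps between neighbouring peaks of chromosome 13 (0.650%), that one included, were at least as long. The next peak after the locus began 191.2 kb downstream of peak 3, and 111 gaps (4.24%) were at least as long as that one. The locus therefore stood between 2 long gaps, with 790.9 kb from the peak before it to the peak after it.

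The first peaks past the window formed a group of their own, from 83854726 to 83884734 on chromosome 13. It held 8 peaks in 30.0 kb, the first of them 24.7 kb past the end of the window. Their widths ran from 165 to 381 bp with a median of 234.5 bp, so none was as wide as peak 2. A gap of 343.3 kb followed them. The window bound decides whether they count as part of the locus: with 50 kb added on each side, 10 peaks fell inside in place of 3. The 500 kb before the window held 0 peaks and the 500 kb after it held 10. Over 1 Mb the counts were 1 before and 16 after, and over 2 Mb they were 7 and 22. Each distance includes the shorter ones, so the group of 8 enters all 3 counts after the window. The 3 comparisons are therefore not separate. From 1 Mb to 2 Mb the counts rose equally on both sides, so the excess after the window lay within 1 Mb.

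By number of peaks the Mef2c window was an ordinary one for its chromosome. Laid end to end from it, 508 other windows of 230 kb fitted between the first and last peak of chromosome 13, and they held a median of 4 peaks (quartiles 1 and 8, range 0 to 25). As many peaks as at Mef2c or fewer were found in 244 of them, 48.0%. Of these, 78 were empty, 76 held 1 peak, 51 held 2 and 39 held 3. The exact Poisson 95% interval of the count of 3 was 0.619 to 8.77, which covers counting error only and spans those quartiles. Peaks covered 0.328% of the window and 0.812% of chromosome 13 from its first to its last peak. The 755 bp under peaks compared with a median of 1105 bp in the other windows (quartiles 266 and 2890 bp), and 214 of the 508 had less. The fullest window of the chromosome, from 55540000 to 55770000, held 25 peaks and 18388 bp.

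The surroundings of Mef2c were poorer in peaks than the chromosome as a whole. Among the 50 nearest windows, 25 on each side, the median was 1 peak, 23 were empty and 17 held 1. Only 7 of the 50 (14.0%) held 3 peaks or more, against 59.6% of all 508. The window directly before Mef2c and the one before that were empty. The window directly after held the group of 8 peaks, the next held 1 peak and the one after that 6. Of the 20 nearest windows, 10 were empty and 4 held more peaks than Mef2c. Gene density and assembly gaps were not used here, so their part in this was not tested.

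**Figure D2:**
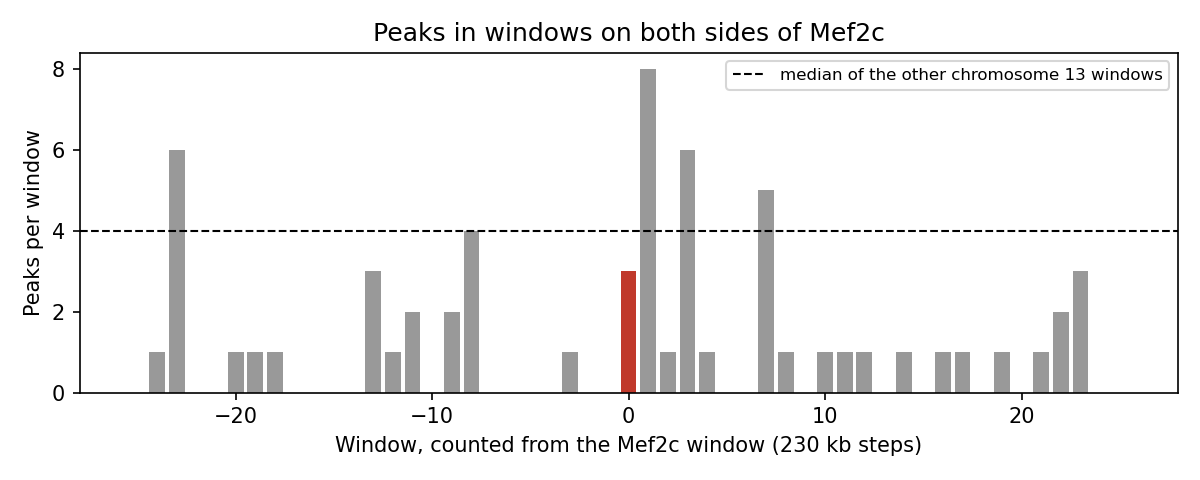
Peaks per 230 kb window (vertical axis) for the Mef2c window (red, at 0) and the 25 windows on each side of it (grey, numbered outwards), with the median of all other chromosome 13 windows, 4, as a dashed line. Most bars near Mef2c stand at 0 or 1, and the window just after it reaches 8.

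Within the bounds chosen, the few peaks of the Mef2c window were tightly packed for chromosome 13. This depended on where the window ends and on counting peaks 2 and 3 separately. With peaks less than 500 bp apart joined, the window held 2 peaks and would not enter a comparison of windows with at least 3. In the 303 other windows with at least 3 peaks, the distance from the first peak to the last ran from 10666 to 227489 bp with a median of 175791 bp, so each was longer than the 6058 bp at Mef2c. Windows with more peaks span more, but the 39 other windows with exactly 3 peaks also all spanned more, with a median of 91979 bp and quartiles of 56301 and 145842 bp. The median distance between neighbouring midpoints was 2941 bp at Mef2c and 18262 bp in the median window with at least 3 peaks, and 1 of the 303 had a shorter one. With 3 peaks this median is the mean of the distances of 605 and 5277.5 bp. It therefore follows from the span and is not a separate measure of packing. With 50 kb added on each side, the window took in 7 of the 8 peaks past its end and its 10 peaks spanned 220.3 kb, and 84 of 250 other windows of that length with at least 3 peaks (33.6%) spanned as little or less. With 20 kb taken off each side the span remained 6058 bp, shorter than in all 331 such windows. Moving the other windows by 50% of their length left 0 of 305 with so short a span. With overlapping windows at every 10 kb of the chromosome that held none of the 3 peaks, 3 of 7024 (0.0427%) with at least 3 peaks had so short a span. On the other autosomes it was 16 of 5387 windows with at least 3 peaks (0.297%) and 15 of 610 with exactly 3 (2.46%). Such packing is thus uncommon but occurs elsewhere in the list. It was noticed after the positions had been seen, windows of a single library cannot serve as replicates, so it was not tested.

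**Figure D3:**
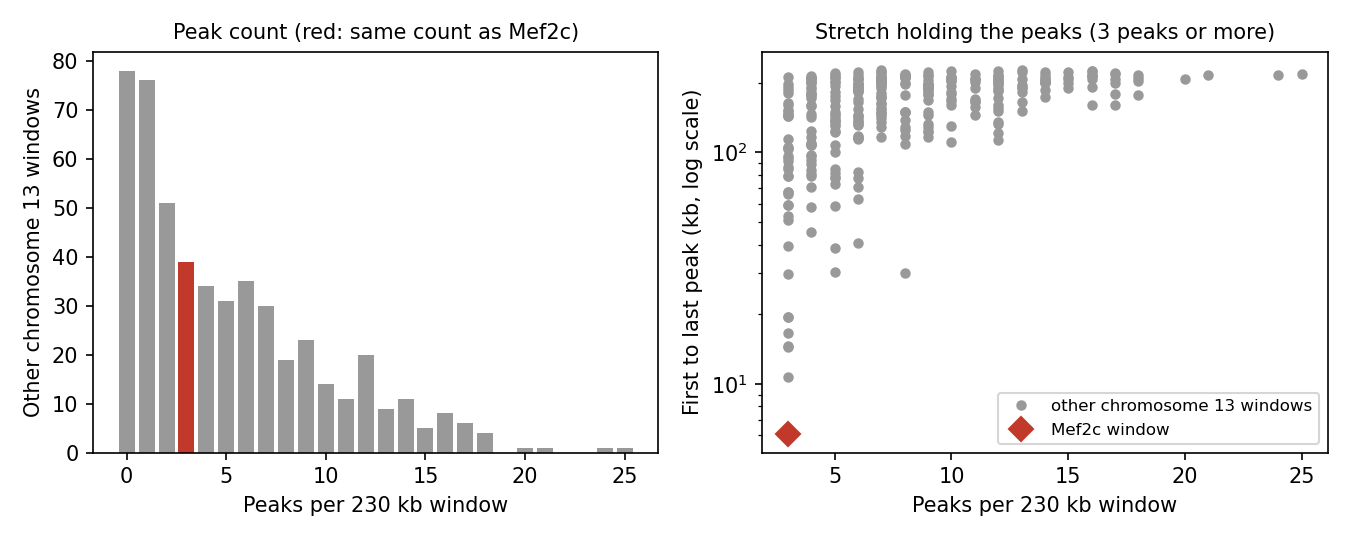
Left, number of other chromosome 13 windows (bars) by peaks per 230 kb window, with the bar of 3 peaks in red. Right, distance from first to last peak (kb, log scale) against peaks per window for windows with at least 3 peaks, where the Mef2c window (red diamond, 6058 bp) lies below all 303 others (grey points).

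All 3 peaks had another peak within 10 kb between midpoints, a property of 51.5% of chromosome 13 peaks. As the 3 are each other's neighbours, this is a single fact about the group. None of the 3 was 1 kb wide or wider, as were 4.89% of chromosome 13 peaks. Peak 1 had the shortest width of the list, 165 bp, shared by 6.08% of chromosome 13 peaks. The median width at Mef2c, 186 bp, was below the chromosome's 248 bp (quartiles 194 and 386 bp), and 22 of the 303 other windows with at least 3 peaks had a lower median. Among the 39 other windows with exactly 3 peaks, 7 (17.9%) had a lower median width. Peak 2 was wider than 77.1% of chromosome 13 peaks, peak 3 wider than 19.4%, and none was narrower than peak 1. The locus thus held a moderately wide peak with a narrow one on each side of it. With 3 neighbouring peaks of a single library, these counts are a description only.

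None of the 3 peaks was in the first 10% of lines of the list, which held 7.80% of chromosome 13 peaks. Peak 2 was on line 24477 (41.8% of the way down), peak 3 on line 36309 (62.0%) and peak 1 on line 55206 (94.3%). On chromosome 13, 36.6% of peaks were listed before peak 2, 57.3% before peak 3 and 94.9% before peak 1. Among these 3 peaks the order by line was the same as the order by width. It was not so in the group of 8 past the window. There the earliest listed peak was 258 bp wide and the widest was 381 bp. The median line at Mef2c, at 62.0% of the list, was near the middle of the 303 other windows with at least 3 peaks, of which 183 had an earlier median. Weighted by peak width, the Mef2c median fell on peak 2, at 41.8%. The lower quartile of the other windows' unweighted medians was 42.0%. The earliest line of a window tends to fall sooner the more peaks it holds, so it was compared among windows with exactly 3 peaks, and at Mef2c it stood later than in 25 of the 39 others.

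A line number may be a coarser rank than it looks. The list can be cut into stretches in which consecutive lines run in genome order (by chromosome name as text, then by start). There were 2016 such stretches, and 10 of them, each of at least 1000 lines, held 36.4% of all lines. Stretches were cut wherever that order broke, so within each the order of lines is that of position by construction. Short stretches can arise in this way whatever the list was ordered by. Peak 2 lay in a stretch of 1727 lines, from 41.0 to 44.0% of the list. Peak 3 lay in one of 2905 lines, from 60.7 to 65.7%, and peak 1 in one of 1406 lines, from 93.7 to 96.1%. Each peak was thus in a different stretch, so the order of peak 2 before peak 3 before peak 1 does not rest on position within a stretch. Peak 2 was wider than 81.1% of the peaks of its stretch, whose median width was 266 bp, and peak 3 wider than 27.6% of its own, with a median of 218 bp. In the stretch of peak 1 the median was 196 bp, and 24.7% of the peaks had the shortest width as it did. What the authors ordered the stretches by is not given in the sources used here, so line numbers are not read as binding strength.

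**Figure D4:**
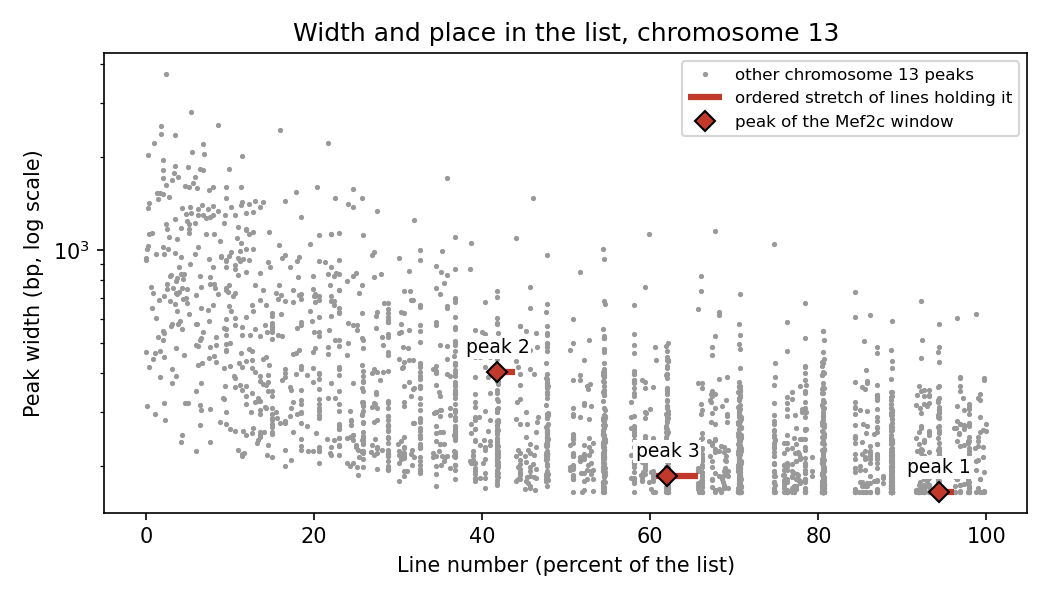
Width (bp, log scale) against line number (percent of the list) for chromosome 13 peaks, with the 3 Mef2c peaks as red diamonds and red bars for the stretch of lines in genome order that holds each. The diamonds stand at 41.8, 62.0 and 94.3%, the widest first, and the grey points form columns where a long stretch crosses chromosome 13.

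In the group of 8 peaks past the window, lines ran from 25.8 to 91.8% of the list with a median of 64.4%. Its earliest peak, at chr13:83870050-83870307, was thus listed before all 3 peaks at Mef2c. The window most like that of Mef2c by peak count, covered length, median width and median line was the one from 91650000 to 91880000, with 3 peaks, 815 bp covered, a median width of 178 bp and a median line at 62.0%. Next came the windows from 41740000 to 41970000 (3 peaks, 857 bp covered) and from 4020000 to 4250000 (3 peaks, 592 bp covered). Their peaks were spread over 160544, 86904 and 186715 bp, so the likeness did not extend to the packing, which was not among the measures used to choose them.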

How the data were processed

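The deposited file has 3 columns (chromosome, start, end), with no header, score, p-value or summit. Per the submitters' processing notes, Bowtie, Picard, bedtools, MACS2 2.0 and the mm9 build were used by the authors. For threshold, control and filters, values were not given in the sources used here. Start positions, which the file counts from 0, are printed from 1. Window and members were chosen with earlier results of these data known.

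Peaks were assigned by midpoint. Windows of 230 kb were laid end to end outwards from the Mef2c window, and widths, lines and spacing were compared over windows with at least 3 peaks. Every peak of the window was to be named, with the 3 most alike windows by summed rank differences, the densest and the flanking ones. Planned work on exons, introns, motifs under peaks and other pathway genes needed an mm9 genome and was not run. The RefSeq promoter table matched Mef2c by symbol with 3 entries; that search, the ordered stretches and the spans with their alternatives were added after the data had been seen. With 1 library nothing was tested. Window counts and stretch detection were checked on simulated data. Scripts ran in Python 3.11.15 (numpy 2.4.6, scipy 1.17.1, pandas 2.3.3; figures with matplotlib 3.10.9).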

Additional observations from a re-analysis of the deposited data

How the results depend on the processing

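No paired analysis was possible because a single library was analysed and no test was made. Of 40 recomputed values, 24 stayed within set limits and 16 did not. The limits were 1.5 times the value, or the exact binomial 95% interval of a share of windows. Values of this kind have no direction. Among the 24 was the median line weighted by peak width, at 41.8% of the list in place of 62.0%. With 50 kb added on each side the window held 10 peaks, 2556 bp under peaks and a median spacing of 5120 bp, its peaks spanned 220.3 kb in place of 6058 bp, and 73.4% of windows of that length had as many peaks or fewer (62.6% by covered length). With 20 kb taken off each side, those shares were 54.5 and 47.3%. Merging peaks under 500 bp apart gave a median width of 532 bp, a spacing of 5530 bp and shares of 40.9% by number and 48.2% by covered length. The first 50% of lines left 1 peak (share 55.1%), as did peaks of at least the median width (55.8%). Among windows with at least 1 peak the share was 38.6%. In these cases fewer or more peaks or windows entered by construction. With unknown depth, weaker sites in the empty parts of the window may have gone unlisted.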

Other observations

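The long gap before Mef2c is part of a wider stretch almost without peaks. From the end of the peak at chr13:81849759-81851058 to the start of peak 1, 1.81 Mb of chromosome 13 held a single peak, of the shortest width in the list. The gap of 1.21 Mb before that peak was the second longest of the chromosome, after one of 1.23 Mb. Unmappable sequence and assembly gaps were not used here.

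When peaks with at most 10 kb between edges were joined, chromosome 13 had 193 groups of at least 3 peaks. Their distance to the nearest other peak had a median of 16.7 kb and a maximum of 216.3 kb. The Mef2c group, 191.2 kb from its nearest peak, was among the 3 most isolated (1.55%). The group of 8 peaks past the window shares that gap with it and so is a second of the 3. The remaining one held 3 peaks in 10.7 kb, at chr13:88960874-88971539, with 216.3 kb before and 707.4 kb after it. On all 19 autosomes, with these 3 groups counted, 13 of 4895 such groups (0.266%) were at least as isolated as the Mef2c group. This comparison was chosen after the positions had been seen and was not tested. It counts peaks 2 and 3 separately. With peaks less than 500 bp apart joined, the Mef2c group would hold 2 peaks and would not be among groups of at least 3.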
